A study of Homo sapiens with 6 samples.

Results

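Transcript levels of 10 human tubulin genes were followed in BE-(2)-C cells given either ELF4 siRNA or control siRNA. BE-(2)-C is a clonal neuroblastoma line with MYCN amplification, and RNA was taken 48 hours after treatment. The ELF4 siRNA group and the control siRNA group had 3 libraries each of poly-A selected RNA from the same line. The labels describe no other agent or allele in either group. The genes were chosen by exact name from the 26906 rows of the table. They are 3 alpha-tubulin genes (TUBA1A, TUBA1B and TUBA1C) and 7 beta-tubulin genes (TUBB, TUBB2A, TUBB2B, TUBB3, TUBB4A, TUBB4B and TUBB6). All 10 had a row of their own, and all 10 passed the limit on low values, a normalised read count of at least 10 in at least 3 libraries, as did 20339 genes in all.

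Alpha and beta tubulin pair into the dimers from which microtubules are built. Vertebrate genomes encode several isotypes of each, which differ most in the acidic carboxy-terminal tail, where enzymes add and remove modifications. TUBB3 is widely used as a marker of neurons, TUBA1A, TUBB2A and TUBB2B are prominent in developing brain, and TUBA1B, TUBA1C, TUBB and TUBB4B are expressed in most dividing cells. Cells also regulate the stability of tubulin mRNA: when free dimers are abundant, the protein TTC5 binds the first amino acids of a tubulin chain as it leaves the ribosome, and the mRNA is degraded.

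That control reads the first amino acids of the chain. The first 30 coding bases, which encode them, are shown here for each gene, with the first 4 codons in capitals. They were read from GENCODE 29 transcripts (GRCh38), 5′ to 3′ on the coding strand.
TUBA1A: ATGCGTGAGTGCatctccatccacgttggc
TUBA1B: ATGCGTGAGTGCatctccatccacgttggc
TUBA1C: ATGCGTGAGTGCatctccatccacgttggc
TUBB: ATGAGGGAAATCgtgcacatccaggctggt
TUBB2A: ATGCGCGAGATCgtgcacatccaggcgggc
TUBB2B: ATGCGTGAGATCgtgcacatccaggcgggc
TUBB3: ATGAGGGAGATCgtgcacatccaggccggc
TUBB4A: ATGCGGGAGATCgtgcacctgcaggccggc
TUBB4B: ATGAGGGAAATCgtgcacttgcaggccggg
TUBB6: ATGAGGGAGATCgtgcacatccaggcgggc
The 3 alpha genes carried the same 30 bases. Among the beta genes the capitals were the same in TUBB and TUBB4B, and the same in TUBB3 and TUBB6. In every beta gene the capitals encode methionine, arginine, glutamate and isoleucine, so these codon differences do not change the amino acids. All 10 genes have 4 exons in the coding transcript used, and the coding sequences are 1332 to 1353 bases long. Coding sequence identity was 96.3% to 97.3% between alpha genes, and ran from 81.3% (TUBB with TUBB6) to 98.2% (TUBB2A with TUBB2B) between beta genes. This likeness limits how well short reads separate the genes. Of all 50-base windows of the coding sequence, 79.9% in TUBB2B, 78.7% in TUBB2A and 75.6% in TUBA1B also occurred in a transcript of another tubulin gene or pseudogene. The share was 58.5% in TUBA1A, 57.1% in TUBA1C and 33.5% in TUBB, and much lower in TUBB4B (12.2%), TUBB3 (11.8%), TUBB4A (11.7%) and TUBB6 (1.55%).

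The recovered depth was 23770924 to 25408746 reads in the ELF4 siRNA libraries and 23148635 to 38097986 in the control libraries. ELF4, the targeted ETS-family transcription factor gene, had a normalised read count of 4.74 ± 1.42 after ELF4 siRNA and 42.7 ± 3.96 after control siRNA (SD, n = 3 each). All 13 markers of sympathetic neuroblasts were detected, with a summed level of 289000 to 311000 after ELF4 siRNA and 251000 to 268000 after control siRNA. Several defining markers of other cells were near 0. SOX10 of Schwann cells reached at most 9.31 in ELF4 siRNA and 3.43 in control libraries, and CDH1 of epithelia at most 8.28 in ELF4 siRNA and 10.28 in control libraries. The fibroblast collagen gene COL1A2 reached at most 4.14 in ELF4 siRNA and 4.57 in control libraries, and the endothelial gene CDH5 at most 2.2 in ELF4 siRNA and 9.42 in control libraries, while VWF, also endothelial, reached at most 15.71 in ELF4 siRNA and 8.5 in control libraries. The summed level of 8 fibroblast markers was 8100 to 8710 after ELF4 siRNA and 9160 to 9360 after control siRNA. Of the 7 that were tested, 4 rose (COL1A1, COL3A1, DCN and LUM) and 2 fell (PDGFRB and THY1), where 20.7% of all genes tested rose and 24.4% fell. The part of these markers in the tubulin results was not tested. In bulk RNA, fewer cells of a kind and less RNA per cell cannot be told apart.

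The comparison asked how tubulin transcripts differed when ELF4 was lowered. Of the 10 tubulin genes, 9 fell, 0 rose and 1, TUBB2A, did not pass the test. Over all genes tested, 24.4% fell and 20.7% rose, 45.1% together. The median log2 fold change of the 10 genes was -0.27, and that of all genes tested was -0.004. In 9 of the 10 genes every ELF4 siRNA library lay below every control library, a separation in that direction that 28.2% of all genes tested showed; 25.4% were separated with ELF4 siRNA higher, which makes 53.6% in either direction. The changes were graded, with log2 fold changes between -0.84 for TUBB3 and -0.05 for TUBB2A. Calls are from limma on log2(normalised read count + 1) with Benjamini-Hochberg adjustment over all genes tested, and the threshold was an adjusted p of 0.05. An exact two-sided permutation test of 3 libraries against 3 cannot go below p = 0.1, which it gave for each of the 9 genes.

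**Figure D1:**
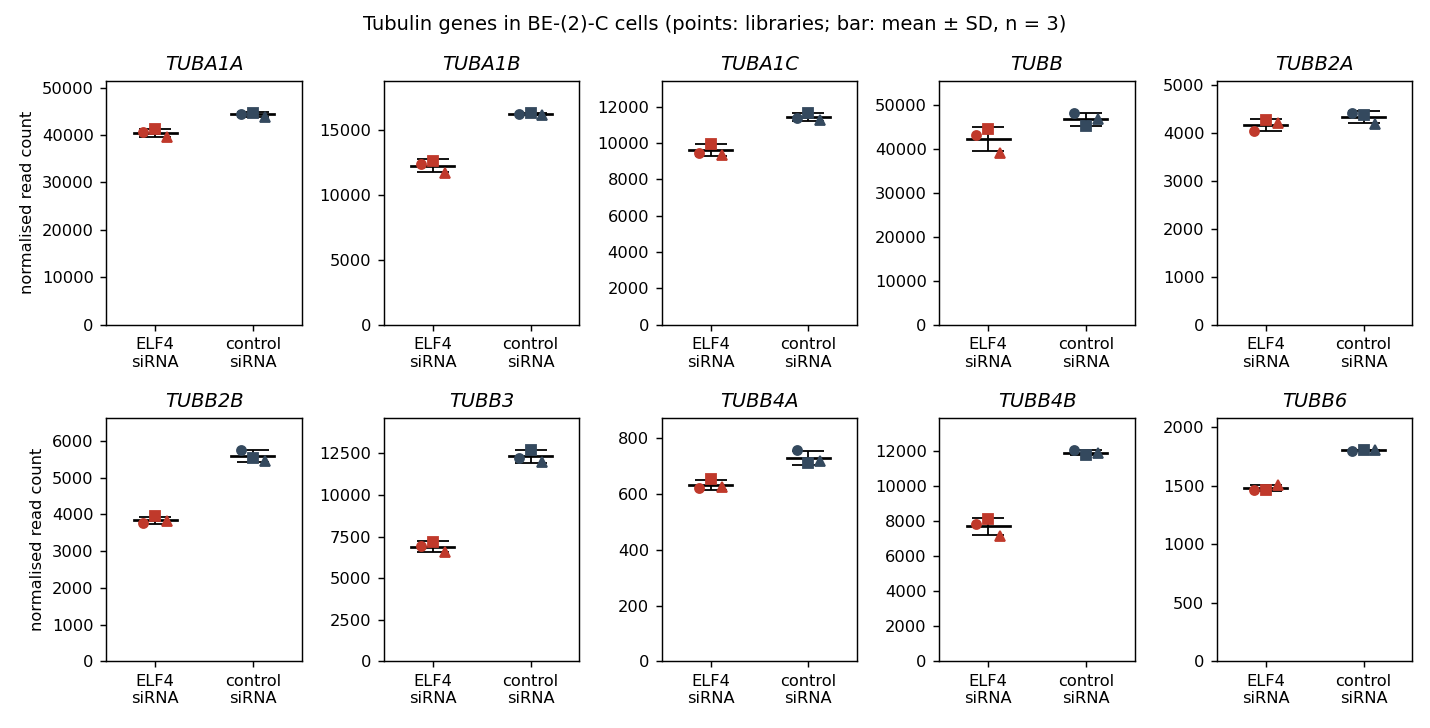
Normalised read count of each tubulin gene (vertical axes, from 0) in the ELF4 siRNA and control siRNA libraries; circles, squares and triangles are replicates 1, 2 and 3, and bars give the mean ± SD (n = 3). TUBB3 shows the widest gap, 6904 after ELF4 siRNA against 12320 after control siRNA on average, and TUBB2A is the gene whose groups overlap.

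The largest fall was in TUBB3, the class of beta tubulin typical of neurons. Its normalised read count was 6922, 7207 and 6581 in ELF4 siRNA replicates 1, 2 and 3, and 12212, 12739 and 12011 in control replicates 1, 2 and 3. The groups lay far apart, with 6904 ± 313 after ELF4 siRNA, 56.0% of the 12320 ± 376 after control siRNA. On the log2 scale TUBB3 changed by -0.84 (SE 0.04, limma adjusted p = 5.10e-09), and 2.17% of all genes tested had a change as low or lower. These values rest on at least 6284 reads per library.

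A second row of the table also names TUBB3 and moved the other way. It joins TUBB3 with MC1R, the melanocortin receptor gene next to it, and with AC092143.1 and RP11-566K11.7. This row held 553, 583 and 539 in ELF4 siRNA replicates 1 to 3, and 371, 431 and 368 in control replicates 1 to 3, with no overlap between the groups. It rose by 0.52 on the log2 scale (SE 0.07, limma adjusted p = 4.23e-05). In relation to the TUBB3 row it amounted to 8.09% ± 0.10 after ELF4 siRNA and 3.16% ± 0.19 after control siRNA (SD, n = 3 each). Adding both rows gave TUBB3 a log2 fold change of -0.77 (limma adjusted p = 1.08e-08). Which of the joined genes gave the reads of this row cannot be told from the table, and TUBB3 was the only one of the 10 genes with such a row.

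**Figure D2:**
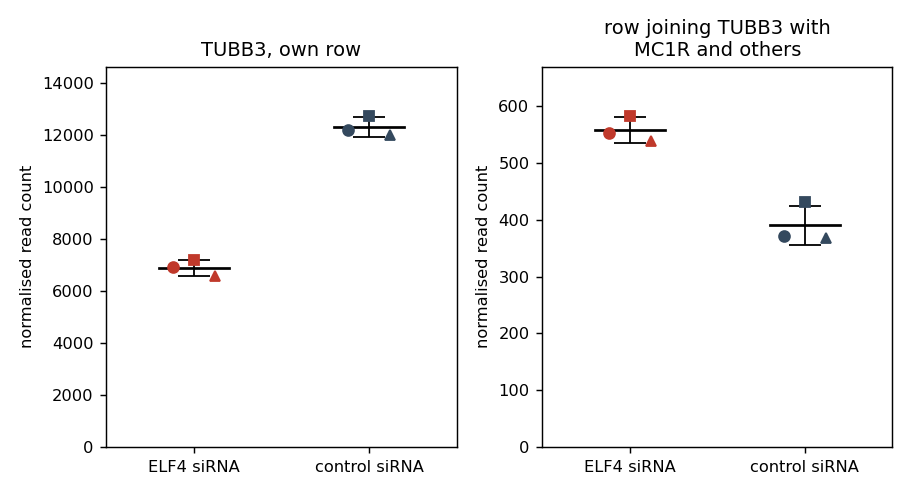
Normalised read count (vertical axes, from 0) of the row named TUBB3 alone and of the row that joins TUBB3 with MC1R, AC092143.1 and RP11-566K11.7; circles, squares and triangles are replicates 1, 2 and 3, and bars give the mean ± SD (n = 3). The first is lower after ELF4 siRNA and the second higher, at 558 against 390 after control siRNA on average.

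TUBB4B, a beta tubulin of most tissues that also builds the axonemes of cilia, showed the fall next in size. It had 7807, 8133 and 7168 normalised reads in ELF4 siRNA replicates 1 to 3, and 12078, 11782 and 11863 in control replicates 1 to 3. The groups did not overlap, and the control libraries lay close together (SD 153). The mean after ELF4 siRNA, 7703 ± 491, was 64.7% of the control mean of 11910 ± 153 (log2 fold change -0.63, SE 0.05, limma adjusted p = 1.07e-07).

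TUBB2A and TUBB2B are neighbouring copies on chromosome 6 with the most alike coding sequences of the set, and their values parted. TUBB2B had 3765, 3951 and 3819 normalised reads in ELF4 siRNA replicates 1 to 3, and 5764, 5543 and 5460 in control replicates 1 to 3. All 3 ELF4 siRNA libraries were lower, and the log2 change was -0.54 (SE 0.04, limma adjusted p = 1.46e-07). TUBB2A had 4032, 4275 and 4203 in ELF4 siRNA replicates 1 to 3, and 4421, 4380 and 4194 in control replicates 1 to 3. Here the groups overlapped, and the log2 fold change of -0.05 had a 95% interval of -0.14 to 0.03 (limma adjusted p = 0.304). The ratio of TUBB2B to TUBB2A, in which the scaling of the libraries cancels, was 0.922 ± 0.013 after ELF4 siRNA and 1.29 ± 0.02 after control siRNA (SD, n = 3 each). On the log2 scale this ratio differed by -0.48, without overlap between the groups (exact two-sided permutation p = 0.1, the smallest possible). Since 78.7% and 79.9% of their coding windows are shared with other tubulin sequences, part of the reads of either gene may come from the other or from a pseudogene.

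The promoter windows of the gene with the largest fall and of this pair of neighbours are printed as windows of 300 bases that lie mostly upstream of the annotated start, because these 3 genes span the range of changes among the beta tubulins. They are RefSeq sequences on GRCh38.p14: TUBB3 at chr16:89923092-89923391 on the plus strand, TUBB2B at chr6:3227604-3227903 on the minus strand, and TUBB2A at chr6:3157495-3157794 on the minus strand. Capitals mark matches, on either strand, to 4 motifs. The TATA box was searched as TATAA, and the CCAAT box by the letters of its name. CCGGAA stood for the ETS core with flanking bases. The cAMP response element was searched as TGACGTCA.
TUBB3: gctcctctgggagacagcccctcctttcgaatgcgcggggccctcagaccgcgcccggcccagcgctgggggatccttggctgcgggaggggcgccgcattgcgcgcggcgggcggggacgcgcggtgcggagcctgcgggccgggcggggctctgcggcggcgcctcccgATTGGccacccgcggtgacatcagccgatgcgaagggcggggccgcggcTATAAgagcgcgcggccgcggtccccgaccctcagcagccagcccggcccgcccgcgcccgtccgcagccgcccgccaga
TUBB2B: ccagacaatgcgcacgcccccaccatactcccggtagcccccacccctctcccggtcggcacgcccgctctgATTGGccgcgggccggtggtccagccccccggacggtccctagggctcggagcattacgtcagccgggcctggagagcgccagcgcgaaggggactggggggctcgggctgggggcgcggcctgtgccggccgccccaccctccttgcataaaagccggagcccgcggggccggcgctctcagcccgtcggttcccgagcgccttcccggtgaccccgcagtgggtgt
TUBB2A: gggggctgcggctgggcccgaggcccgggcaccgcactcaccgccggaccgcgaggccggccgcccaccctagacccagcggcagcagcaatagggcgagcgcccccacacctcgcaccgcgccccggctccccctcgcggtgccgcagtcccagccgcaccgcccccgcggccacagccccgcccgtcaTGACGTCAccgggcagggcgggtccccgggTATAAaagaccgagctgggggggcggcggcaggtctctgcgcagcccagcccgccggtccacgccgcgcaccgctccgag
A TATAA stood 30 bases before the start in TUBB3 and in TUBB2A. CCAAT was found on the opposite strand in TUBB3 and TUBB2B, and TGACGTCA in TUBB2A. None of these matches overlapped another. RefSeq windows were found for all 10 genes, 16 windows in all because some genes have several starts. CCGGAA occurred in 0 of the 16, where it occurred in 17.2% of all 35116 windows of 300 bases. CCAAT was present in 10 of the 16 and in 34.6% of all windows, TATAA in 4 of the 16 and in 20.4%, and TGACGTCA in 1 of the 16 and in 1.85%. These are matches of letters and do not show binding.

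The other beta tubulins fell by less. TUBB6, a beta tubulin that is low in brain, had 1461, 1464 and 1506 normalised reads in ELF4 siRNA replicates 1 to 3, and 1794, 1809 and 1801 in control replicates 1 to 3. Its groups were tight and separate, and the log2 change was -0.29 (SE 0.04, limma adjusted p = 8.87e-05). TUBB4A, a brain isotype abundant in oligodendrocytes, was the rarest, at 634 ± 17.1 after ELF4 siRNA and 731 ± 25.8 after control siRNA (log2 fold change -0.21, SE 0.05, limma adjusted p = 0.00713). Its call was lost without control replicate 1 (log2 fold change -0.18, limma adjusted p = 0.0516). TUBB, the main beta tubulin of most cells, had 43294, 44520 and 39105 in ELF4 siRNA replicates 1 to 3, and 48272, 45224 and 46835 in control replicates 1 to 3. The groups were separate, but only narrowly between ELF4 siRNA replicate 2 and control replicate 2, and the log2 change was -0.15 (SE 0.05, limma adjusted p = 0.0224). The TUBB call was lost without ELF4 siRNA replicate 3 (-0.09, limma adjusted p = 0.0868), without control replicate 1 (-0.12, limma adjusted p = 0.101) and without control replicate 3 (-0.15, limma adjusted p = 0.0533). It was also lost without the mean-variance trend (limma adjusted p = 0.132).

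Among the alpha genes, TUBA1B fell most. This alpha tubulin of most dividing cells had 12388, 12606 and 11663 normalised reads in ELF4 siRNA replicates 1 to 3, and 16193, 16296 and 16092 in control replicates 1 to 3. Every ELF4 siRNA library was lower, and the log2 change was -0.41 (SE 0.04, limma adjusted p = 1.40e-06). TUBA1C, which lies in the same cluster on chromosome 12, had 9596 ± 326 after ELF4 siRNA and 11420 ± 214 after control siRNA (log2 fold change -0.25, SE 0.04, limma adjusted p = 0.000107). TUBA1A, the alpha tubulin of young neurons, had 40663, 41198 and 39512 in ELF4 siRNA replicates 1 to 3, and 44502, 44668 and 43775 in control replicates 1 to 3. Those groups were separate too, although the change was small, -0.13 on the log2 scale (SE 0.04, limma adjusted p = 0.00748). The call was lost without the mean-variance trend (limma adjusted p = 0.06). The ratio of TUBA1B to TUBA1A was 0.302 ± 0.006 after ELF4 siRNA and 0.365 ± 0.002 after control siRNA (SD, n = 3 each; exact two-sided permutation p = 0.1).

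**Figure D3:**
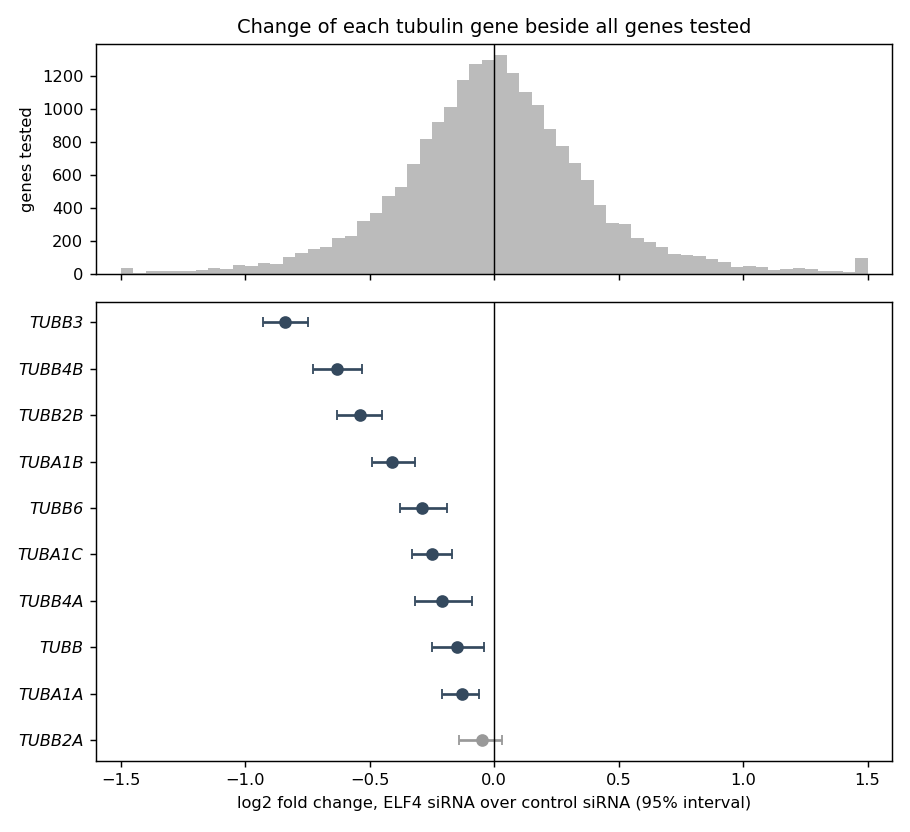
Upper panel, number of genes tested by log2 fold change, with values beyond 1.5 in either direction counted in the end bins; lower panel, log2 fold change of each tubulin gene with its 95% interval, in blue for genes that fell and grey for TUBB2A. The tubulin genes run from -0.84 for TUBB3 to -0.05 for TUBB2A, all left of 0.

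Replicates of a group differed little, with coefficients of variation of 0.432% to 6.71% over the 10 genes and both groups. ELF4 siRNA replicate 2 held the highest value of its group in 9 of 10 genes, ELF4 siRNA replicate 3 the lowest in 6, and control replicate 3 the lowest of its group in 6. Each of the 10 genes kept a negative log2 fold change when any 1 library was left out.

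To compare isotypes with one another, each value was divided by the length of the longest protein-coding transcript of the gene in GENCODE 29. On this scale of normalised reads per kilobase, TUBA1A led in both groups, with 21130 ± 450 after ELF4 siRNA and 23140 ± 248 after control siRNA. TUBB followed with 14570 ± 978 after ELF4 siRNA and 16110 ± 525 after control siRNA, then TUBA1B with 7510 ± 304 after ELF4 siRNA and 9953 ± 62.7 after control siRNA. TUBB4B (4705 ± 300 after ELF4 siRNA, 7274 ± 93.5 after control siRNA), TUBB3 (3490 ± 158 after ELF4 siRNA and 6229 ± 190 after control siRNA) and TUBA1C (3198 ± 109 after ELF4 siRNA and 3806 ± 71.4 after control siRNA) came next. TUBB6 and TUBB4A were the lowest in both groups, at 716 ± 12.2 and 248 ± 6.70 after ELF4 siRNA and 873 ± 3.77 and 286 ± 10.1 after control siRNA. TUBB2A was above TUBB2B after ELF4 siRNA (2614 ± 78.5 and 1904 ± 47.4), whereas the pair could not be separated after control siRNA (2716 ± 75.6 and 2767 ± 77.9). All other neighbours in the order were separate in their group. The order depends on the lengths used. Per kilobase of coding sequence TUBB stood above TUBA1A, at 31760 and 29900 after ELF4 siRNA and at 35120 and 32750 after control siRNA, and TUBB3, TUBB4B and TUBA1C took other places among themselves. On that scale TUBB2A was above TUBB2B after ELF4 siRNA, at 3124 and 2880, and below it after control siRNA, at 3245 and 4187.

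Summed per kilobase, the 3 alpha genes came to 31830 ± 845 after ELF4 siRNA and 36900 ± 372 after control siRNA, a change of -13.7%. The 7 beta genes came to 28250 ± 1460 after ELF4 siRNA and 36260 ± 620 after control siRNA, a change of -22.1%. Neither sum overlapped between the groups (SD, n = 3 each; exact two-sided permutation p = 0.1 for each). The ratio of beta to alpha was 0.891, 0.907 and 0.863 in ELF4 siRNA replicates 1 to 3, and 1.00, 0.963 and 0.985 in control replicates 1 to 3. Every ELF4 siRNA library was lower, and the mean ratio fell by 9.73% (exact two-sided permutation p = 0.1). With coding lengths the ratio was 1.09 after ELF4 siRNA and 1.17 after control siRNA, so its level depends on the length, but not its direction. The 10 genes together held 0.487% of all normalised reads after ELF4 siRNA and 0.580% after control siRNA. Reads that match several tubulin genes, if counted in each row, would enter these sums, the ratio and the shares below repeatedly.

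The makeup of the beta pool shifted. TUBB3 held 12.4% ± 0.11 of the summed beta level after ELF4 siRNA and 17.2% ± 0.68 after control siRNA. TUBB4B held 16.6% ± 0.21 after ELF4 siRNA and 20.1% ± 0.10 after control siRNA, and TUBB2B 6.75% ± 0.30 after ELF4 siRNA and 7.63% ± 0.10 after control siRNA. Since these fell more than the sum, the shares of TUBB and TUBB2A were higher after ELF4 siRNA although their own levels were not: TUBB held 51.6% ± 0.94 after ELF4 siRNA and 44.4% ± 0.86 after control siRNA, and TUBB2A 9.27% ± 0.54 after ELF4 siRNA and 7.49% ± 0.17 after control siRNA. TUBB4A and TUBB6 held under 3% of the pool in both groups. In the alpha pool TUBA1A held 66.4% ± 0.36 after ELF4 siRNA and 62.7% ± 0.11 after control siRNA, and TUBA1B 23.6% ± 0.35 after ELF4 siRNA and 27.0% ± 0.11 after control siRNA. The shares of 9 of the 10 genes did not overlap between the groups, and the exception was TUBB6 (exact two-sided permutation p = 0.1 for the 9, the smallest possible, and 0.3 for TUBB6). Some of these shifts were small, as for TUBA1C, with 10.0% ± 0.169 after ELF4 siRNA and 10.3% ± 0.105 after control siRNA. By their own levels, 53.6% of all genes tested did not overlap in either direction. Shares of a family add up to the whole, so a lower share of some genes raises others, and the 9 are not separate results.

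**Figure D4:**
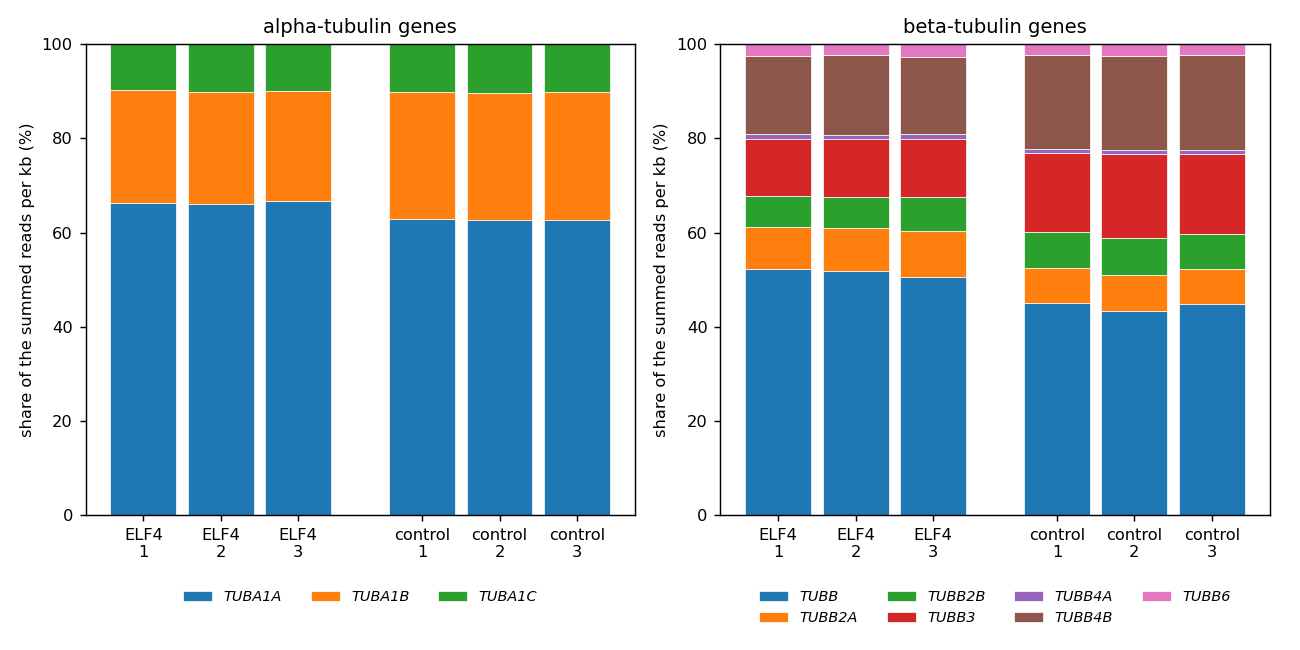
Share of each isotype in the summed normalised reads per kilobase of its own family (vertical axes, percent), by library, with alpha-tubulin genes on the left and beta-tubulin genes on the right. The TUBB3 band averages 12.4% in the ELF4 siRNA libraries and 17.2% in the control libraries, and the TUBB band 51.6% in the ELF4 siRNA libraries and 44.4% in the control libraries.

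Of 11 further alpha and beta tubulin genes and pseudogenes listed, 8 had a row and 5 were tested, of which 3 fell and 0 rose (median log2 change -0.36). The 3 were TUBA4A, TUBB8 and, named after its values were seen, the pseudogene TUBB2BP1. It had 805 ± 43.8 after ELF4 siRNA and 926 ± 54.5 after control siRNA (log2 fold change -0.2, limma adjusted p = 0.014). The median is the value of TUBB1, which was not called and had only 9.11 after ELF4 siRNA and 11.7 after control siRNA. Over all genes tested, 24.4% fell and 20.7% rose. TUBA4A, an alpha tubulin of differentiated tissues, had 39.7 ± 10.3 normalised reads after ELF4 siRNA and 60.2 ± 3.77 after control siRNA (log2 fold change -0.62, limma adjusted p = 0.0104). TUBB8, an isotype known from oocytes, had 20.6 ± 1.63 after ELF4 siRNA and 35.0 ± 3.50 after control siRNA (log2 fold change -0.73, limma adjusted p = 0.00369). The pseudogene rows TUBB7P, TUBB8P7 and TUBB8P8 held the same or almost the same values as TUBB8 in each library, so their reads cannot be told apart. All of these rows stood at 18.73 in ELF4 siRNA replicate 1 and at 21.73 in ELF4 siRNA replicate 3. The same reads may be counted in several tubulin rows, which was not tested. A pair of beta pseudogenes were among the larger tubulin rows, and are named after their values were seen. TUBBP1 had 6657 ± 396 after ELF4 siRNA and 6916 ± 209 after control siRNA (log2 fold change -0.06, limma adjusted p = 0.348), and TUBBP2 1116 ± 97.4 after ELF4 siRNA and 1247 ± 63.7 after control siRNA (log2 fold change -0.16, limma adjusted p = 0.054). With all beta pseudogene rows added to it, TUBB had a log2 fold change of -0.14 (limma adjusted p = 0.0281).

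The gamma, delta and epsilon tubulins and the gamma-tubulin ring complex, which seeds microtubules at the centrosome, moved in both directions. Lower calls were made for 5 of the 16 tested and higher calls for 3, around a median log2 change of -0.03. These counts stand beside 24.4% of all genes tested that fell and 20.7% that rose. TUBG1, the main gamma tubulin, had 2383 ± 149 after ELF4 siRNA and 3221 ± 19.0 after control siRNA (-0.44, limma adjusted p = 5.20e-06). TUBGCP6, a subunit of the ring complex, had 2460 ± 53.7 after ELF4 siRNA and 1930 ± 69.3 after control siRNA (0.35, limma adjusted p = 2.02e-05).

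New tubulin chains are folded by the chaperonin CCT with prefoldin and joined into dimers by tubulin cofactors. Among the 22 such genes tested, 9 fell and 2 rose, leaving 11 uncalled (median log2 change -0.10), where 24.4% of all genes tested fell and 20.7% rose. VBP1, a prefoldin subunit, had the largest change of the list, 1891 ± 76.0 after ELF4 siRNA and 3256 ± 44.1 after control siRNA (log2 fold change -0.78, limma adjusted p = 1.12e-08). TBCA, which holds folded beta tubulin, fell with a log2 fold change of -0.26 (limma adjusted p = 9.62e-05). The genes that rose were TBCC (0.35), the cofactor that completes the dimer, and PFDN6 (0.22), both named after their values were seen.

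Of the 12 genes of tubulin mRNA autoregulation and of the CCR4-NOT deadenylase it uses, 8 fell and 2 rose (median log2 change -0.16). With DESeq2 on recovered reads 5 fell. The limma shares over all genes tested were 24.4% that fell and 20.7% that rose. CNOT7, a deadenylase subunit, had 3831 ± 183 after ELF4 siRNA and 5386 ± 319 after control siRNA (-0.49, limma adjusted p = 2.76e-06). CNOT6, another, had 2842 ± 142 after ELF4 siRNA and 3874 ± 205 after control siRNA (-0.45, limma adjusted p = 6.65e-06). Named after their values were seen, TTC5 fell (-0.17, limma adjusted p = 0.0269), and SCAPER, which links TTC5 to the deadenylase, rose (0.54, limma adjusted p = 7.46e-06).

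Enzymes that modify tubulin were split: 5 rose and 5 fell of 19 tested (median log2 change 0.02), where 20.7% of all genes tested rose and 24.4% fell. TTLL7, which adds glutamate chains to beta tubulin, had 1195 ± 62.2 after ELF4 siRNA and 774 ± 49.3 after control siRNA (0.63, limma adjusted p = 1.54e-06). VASH2, which removes the last tyrosine of alpha tubulin, had 327 ± 15.7 after ELF4 siRNA and 507 ± 31.8 after control siRNA (-0.63, limma adjusted p = 5.13e-06). VASH1, with the same activity and named after its value was seen, rose (0.33, limma adjusted p = 0.0076).

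Stathmins and proteins that sever or depolymerise microtubules were mostly lower by count of genes: 10 of the 15 tested fell and 2 rose (median log2 change -0.16). The summed level of the list was higher, at 58600 to 60500 after ELF4 siRNA and 54700 to 55600 after control siRNA. The genes that rose were STMN2 and STMN4, neuronal stathmins which bind free tubulin dimers. The other stathmins of the list, STMN1 (-0.22, limma adjusted p = 0.000179) and STMN3 (-0.1, limma adjusted p = 0.0332), fell. Both are named after their values were seen. STMN2 had 28313, 27414 and 28588 normalised reads in ELF4 siRNA replicates 1 to 3, and 18759, 18785 and 19366 in control replicates 1 to 3, well apart (0.57, limma adjusted p = 3.42e-08). STMN4, named after its values were seen, rose by 0.89 (limma adjusted p = 7.54e-06). FIGN, a severing enzyme, fell to 485 ± 48.2 after ELF4 siRNA, against 839 ± 50.2 after control siRNA (-0.79, limma adjusted p = 1.14e-06). Read against the shares of all genes tested, 24.4% that fell and 20.7% that rose, these counts describe the lists only, and no list was tested as a set.

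**Figure D5:**
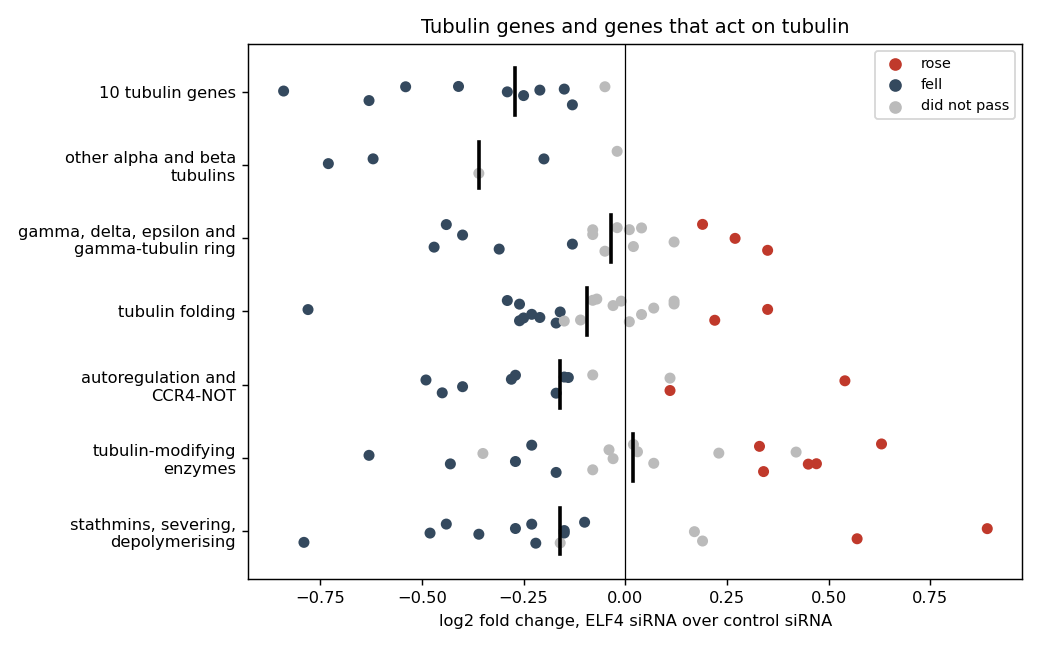
Log2 fold change (horizontal axis; above 0 is higher after ELF4 siRNA) for each tested gene of the 10 tubulin genes and of 6 lists of other tubulins and genes that act on tubulin (rows); red points rose, blue points fell, grey points did not pass, and black bars are medians. The 10 tubulin genes have a median of -0.27, and the median of the other lists runs from -0.36 to 0.02.

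TUBB3 had the largest called change of the 10 tubulin genes, so the genes whose profile over the 6 libraries was most like it were looked up. Among 13055 other genes with a mean of at least 100, the highest Pearson correlations of log2 values were with EIF3L, a translation initiation factor gene (r = 0.9998), RP11-887P2.3 (r = 0.9998) and PFN1, the actin-binding profilin (r = 0.9995). EIF3L had 6551 normalised reads after ELF4 siRNA and 12310 after control siRNA on average. The difference between the groups sets most of such a profile, and 371 genes had a correlation of at least 0.99, so this is a description of 6 libraries and no more.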

How the data were processed

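Poly-A RNA was sequenced from BE-(2)-C cells, with 3 libraries per siRNA group. The deposited table holds a signal per gene: a read count that the authors divided by 1 size factor per library. The submitters' processing notes name hg19, TopHat, DESeq2 and featureCounts, whereas roles, versions, annotation, strand setting and filters were not given in the sources used here. Each deposited value was a whole multiple of 1 read (within 0.001), so reads were recovered (23148635 to 38097986 per library). Joined gene names make up 2148 rows with 11.4% of the reads. Without a stated strand setting, overlapping antisense genes cannot be told apart.

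ELF4 siRNA was compared with control siRNA by limma 3.58.1 (R 4.3.3, trended moderation, no covariate) on log2(value + 1), since the values are normalised and not counts. This scale understates changes of rare genes. The test took genes that reached 10 in 3 or more libraries, with Benjamini-Hochberg adjustment over all of them. Sums, shares and ratios were tested by exact two-sided permutation. Whether the libraries of a group stem from different cultures is not stated in the labels; the p-values reflect library spread alone, possibly technical. Libraries of a group differed by more than sampling noise (chi-square per degree of freedom 2.07 to 5.85). On simulated data for this comparison (20061 genes), limma recovered 69% of 100 genes changed by 0.5 and 85% of 100 changed by 1 on the log2 scale, and called 11 unchanged genes. The simulation changed only a small part of its genes, whereas 45.1% of genes tested were called in the data. Recovery and false calls in the data may therefore differ from these figures.

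Lengths and coding sequences come from GENCODE 29 and promoters from RefSeq, both on GRCh38 rather than hg19, and serve only for lengths, likeness and printed sequence. The members and lists were chosen with earlier results of these data known. Named genes are the 10 tubulins, ELF4, the up to 2 genes of each list with the smallest adjusted p, and the 3 genes most like the called member with the largest change. Other genes, including further cell type markers and pseudogenes, were chosen after their values were seen. Alternatives changed the pseudocount, filter, scaling, trend, lengths or joined rows, dropped single libraries, added a replicate block, or ran edgeR 4.0.16 and DESeq2 1.42.0 on recovered reads. Adding pseudogene rows was chosen after seeing the data. Further software was biopython 1.88, matplotlib 3.10.9, pandas 2.3.3, scipy 1.17.1 and numpy 2.4.6 under Python 3.11.15.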

Additional observations from a re-analysis of the deposited data

How the results depend on the processing

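The alternatives gave 162 fold changes for the tubulin genes; all were negative, and 156 fell on the same side of the threshold as reported. Without the trend TUBA1A (-0.13, limma adjusted p = 0.06) and TUBB (-0.15, limma adjusted p = 0.132) were no longer called. Leaving out 1 library gave TUBB -0.18 to -0.09, with the call lost in 3 of 6 cases, and TUBB4A -0.23 to -0.18, with 1 loss. The cause was not tested. The numbers of genes called, 4217 that rose and 4956 that fell, stayed within 1.5 times, at 4454 and 4807 with edgeR and 3442 and 4079 with DESeq2. With DESeq2, 5 of the autoregulation and CCR4-NOT genes fell (8 with limma) and 1 epithelial marker (2 with limma). All sums and the beta to alpha ratio moved by less than the spread between replicates. The log2 ratio of the TUBB share was 0.17 with coding lengths and 0.17 with no length (0.21 as reported), that of the TUBB4B share -0.31 with coding lengths, -0.31 with no length and -0.29 with pseudogene rows (-0.27 as reported), and that of the TUBB3 share -0.42 with the joined row (-0.48 as reported).

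The replicate numbers are not known to pair the libraries: same-numbered deviations correlated at 0.029, 0.075 and 0.041, against -0.057 to 0.015 for other pairs, and each library correlated best with its own number, a hint from the data. With a replicate block 4564 genes rose and 5346 fell, and no call among the tubulin genes changed. The tubulin genes had 565 to 66115 reads per library, and reads assigned to the wrong copy or counted in several rows were not measured.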

Other observations

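Marker lists of cell types, which are not part of the tubulin comparison, are given beside the 20.7% of all genes tested that rose and the 24.4% that fell. Of 3 Schwann cell markers tested, 1 rose (S100B, 89.3 ± 4.46 after ELF4 siRNA and 62.7 ± 5.86 after control siRNA) and 1 fell (ERBB3, 16.9 ± 3.98 after ELF4 siRNA and 44.5 ± 3.85 after control siRNA). Of 4 epithelial markers tested, 1 rose (KRT19, 131 ± 13.1 after ELF4 siRNA and 92.2 ± 10.8 after control siRNA) and 2 fell, among them CLDN4 (44.3 ± 5.58 after ELF4 siRNA and 94.5 ± 9.82 after control siRNA). Of 2 blood markers tested, PTPRC rose (22.4 ± 4.67 after ELF4 siRNA and 10.2 ± 1.78 after control siRNA) and CD14 fell (16.7 ± 4.0 after ELF4 siRNA and 40.3 ± 2.27 after control siRNA). Of the 13 sympathetic neuroblast markers, 5 rose and 4 fell, with the granule genes CHGA (104400 ± 5690 after ELF4 siRNA and 71160 ± 2530 after control siRNA) and CHGB (30540 ± 679 after ELF4 siRNA and 21580 ± 1090 after control siRNA) among those that rose. In the fibroblast list PDGFRB, a growth factor receptor gene, fell (875 ± 66.4 after ELF4 siRNA and 1989 ± 63.4 after control siRNA) and DCN, a matrix proteoglycan gene, rose (1722 ± 58.7 after ELF4 siRNA and 967.7 ± 33.7 after control siRNA).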
